A study of Mus musculus with 4 samples.

Results

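The genes described here make up the apoptosis machinery and a set of p53 targets. They are 36 genes of the 24473 with FPKM values (fragments scaled to transcript length and library size), found by matching gene names to a fixed list, and all 36 were found. RNA sequencing was done on BV-2 cells, a mouse microglial line immortalised with the v-raf and v-myc oncogenes. There were 2 libraries of cells labelled as a SIX2 knockdown and 2 control libraries labelled wild type, and SIX2 is a homeobox transcription factor. Every library, controls included, came from cells given lipopolysaccharide (LPS), the bacterial ligand of TLR4, at 100 ng/mL for 24 h. The titles of both groups carry the prefix sh, so controls called wild type may carry a hairpin of their own. The labels name no hairpin sequence, do not say whether a line was 1 clone and do not say whether replicates were separate cultures. The p-values therefore rest on library-to-library spread that may be technical only.

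Apoptosis runs along a pair of routes that meet at the executioner caspases. In the extrinsic route, a death receptor such as FAS or a TNF receptor assembles adaptors and caspase-8. In the intrinsic route, the BCL2 family sets the permeability of the mitochondrial outer membrane, and released cytochrome c lets APAF1 activate caspase-9. The transcription factor p53 raises members of both routes after DNA damage, and in macrophages LPS acts through NF-kappaB on several survival genes of the same families. Here these genes are taken in the order receptors, adaptors, caspases, BCL2 family, inhibitors of apoptosis, and p53 with its targets.

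The knockdown libraries held 74.7 and 64.3 M estimated counts and the control libraries 75.7 and 61 M, with 1 fragment taken as 4 counts. Six2 had 0 counts in all 4 libraries, so neither the knockdown nor the labels could be checked on it. A count of 0 allows up to 12 counts, which is 0.159 to 0.197 CPM (counts scaled to library size), counting error only. The 12 microglia and macrophage markers were all detected, and their levels summed to 2191 and 2175 CPM in knockdown libraries and to 2518 and 2581 CPM in control libraries. The lowest of them, Cx3cr1, had only 0.257 and 0.853 CPM in knockdown libraries and 0.393 and 0.437 CPM in control libraries. Of the 12 markers 4 fell in the edgeR test, as did 0.547% of all genes tested. On the log2 scale they were Lyz2 by 1.00 (adjusted p = 0.0159), Adgre1 by 0.63 (0.0198), Csf1r by 0.48 (0.0426) and Aif1 by 1.04 (0.044). Without edgeR's robust option their adjusted p-values ran from 0.0634 to 0.102, so these calls were lost. Trem2 lay higher, at 0.48 on that scale, without passing (adjusted p = 0.0969). Markers of neurons, astrocytes, oligodendrocytes, endothelial cells and fibroblasts summed to at most 14.8 CPM per list in any library. The oligodendrocyte list stood at 8.02 and 0.316 CPM in knockdown libraries and 14.8 and 14.0 CPM in control libraries, and the neuron list at 3.32 and 0 CPM against 6.88 and 6 CPM in control libraries. The part of these marker differences in the results was not tested. Mitochondrially encoded genes held 3.95% and 4.94% of counts in knockdown libraries and 3.69% and 3.98% in control libraries.

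Of the 36 genes, 35 had enough counts to be tested, and 0 passed an adjusted p of 0.05 in the edgeR quasi-likelihood test over all genes. Over all genes 150 of 15733 passed, which is 0.953%: 64 were higher (0.407%) and 86 lower (0.547%). Unadjusted p-values lay under 0.05 for 9 of the 35 genes (25.7%), 4 of them higher and 5 lower, against 14.2% of all genes tested (7.52% higher and 6.7% lower). DESeq2 called 5 of them, against 5.12% of all genes: Fas, Tnfrsf1b and Bcl2l11 lower, and Bid and Phlda3 higher. The 2 libraries of each group did not overlap for 23 of the 35 genes (65.7%), against 47.6% of all genes tested. In 13 of these the knockdown libraries were above, and in 10 below, against 23.8% of all genes in each direction. The median log2 fold change was -0.06, against -0.01 for all genes tested.

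Levels differed widely between the genes. As mean FPKM over the 4 libraries, which allows for transcript length, 3 genes stood above 50: Bax at 108, Mcl1 at 92.3 and Trp53 at 74.9. Another 9 lay between 10 and 50 FPKM, 21 between 1 and 10, and 3 below 1. Those 3 were Zmat3, Phlda3 and Tnfrsf10b.

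**Figure D1:**
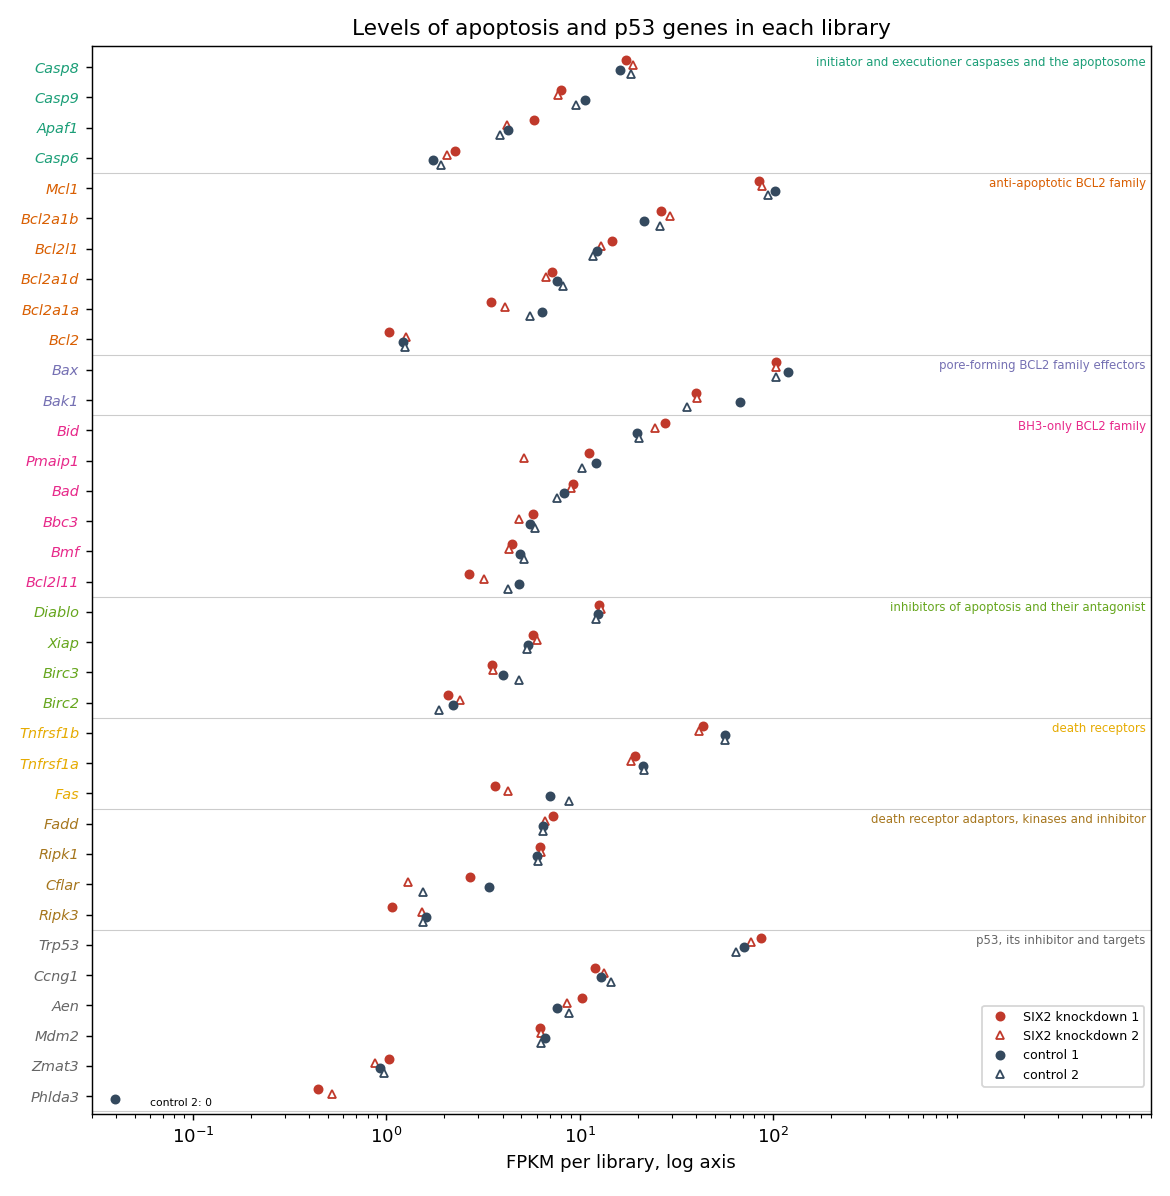
FPKM of each tested gene in every library (log axis), grouped by role, with knockdown libraries in red and control libraries in dark blue. Bax, Mcl1 and Trp53 are the most abundant, Phlda3 is the least abundant of those drawn and is at 0 in control 2, and Tnfrsf10b is not drawn because it is at 0 throughout.

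The death receptor list, which takes in Tnfrsf1b although its protein lacks a death domain, showed the lowest group median. All 3 tested receptors had knockdown libraries below both control libraries, as did 23.8% of all genes tested. The median log2 fold change was -0.38, which is the value of Tnfrsf1b. Fas and Tnfrsf1b had the lowest unadjusted p-values of the 36 genes, but neither passed the adjusted threshold in edgeR. The promoters of these receptor genes are shown because both lay lower in the knockdown libraries. They run from 250 bases before to 50 after the RefSeq start (GRCm38.p6), 5′ to 3′ on the strand of the gene. Fas is on the plus strand at chr19:34290409-34290708 and Tnfrsf1b on the minus strand at chr4:145246821-145247120. Capitals would mark a motif match, and neither window holds one of the motifs searched, which are described with Trp53.
Fas: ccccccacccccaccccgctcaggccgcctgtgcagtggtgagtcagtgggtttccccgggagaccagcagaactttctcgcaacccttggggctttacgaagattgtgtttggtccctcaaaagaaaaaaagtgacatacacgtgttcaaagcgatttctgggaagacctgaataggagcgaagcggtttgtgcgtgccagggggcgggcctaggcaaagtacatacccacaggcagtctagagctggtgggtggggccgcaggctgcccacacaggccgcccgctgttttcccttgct
Tnfrsf1b: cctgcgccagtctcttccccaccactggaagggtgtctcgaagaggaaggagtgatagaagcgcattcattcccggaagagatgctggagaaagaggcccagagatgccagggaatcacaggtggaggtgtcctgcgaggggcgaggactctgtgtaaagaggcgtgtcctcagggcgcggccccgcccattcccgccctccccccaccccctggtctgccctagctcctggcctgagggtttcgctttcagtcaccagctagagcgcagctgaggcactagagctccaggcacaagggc

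Fas (ENSMUSG00000024778, chr19:34290666-34327772, plus strand) encodes the receptor for FAS ligand. It had 628 and 631 counts in knockdown libraries, against 1225 and 1226 in control libraries. Scaled to library size these were 8.48 and 9.97 CPM in knockdown libraries and 16.1 and 19.8 CPM in control libraries. Both knockdown libraries lay well below both controls. The log2 fold change was -0.96 ± 0.17 (SE; 95% interval -1.36 to -0.56), with an edgeR adjusted p of 0.0704. DESeq2 gave an adjusted p of 0.000485, and over 14 alternatives the adjusted p ran from 0.000485 to 0.299. In a bulk sample, fewer cells with the transcript and less transcript per cell cannot be told apart.

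Tnfrsf1b (ENSMUSG00000028599, chr4:145213463-145246870, minus strand) encodes TNF receptor 2, which lacks a death domain and signals largely through TRAF2 and the cellular inhibitors of apoptosis. It was the most abundant receptor of the group, at 43.3 and 41.5 FPKM in knockdown libraries and 56.4 and 56.4 FPKM in control libraries. Its CPM was 186 and 179 in knockdown libraries and 238 and 236 in control libraries. The replicates were close within each group and the groups were apart. The fitted log2 fold change was -0.38 ± 0.07 (interval -0.54 to -0.21; edgeR adjusted p = 0.0742), and over 14 alternatives the adjusted p ran from 3.26e-05 to 0.314. Tnfrsf1a, the death domain receptor for TNF, had 19.5 and 18.4 FPKM in knockdown libraries and 21.2 and 21.6 FPKM in control libraries. A smaller log2 fold change was fitted, -0.14 ± 0.08 (interval -0.34 to 0.05; edgeR adjusted p = 0.5). Within a library, the ratio of Tnfrsf1b to Tnfrsf1a FPKM was 2.23 and 2.25 in knockdown libraries and 2.66 and 2.61 in control libraries. Tnfrsf10b, the mouse TRAIL death receptor, had 0 counts in all 4 libraries and was not tested. That leaves at most 12 counts in any library, so the transcript was not detectable at this depth.

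**Figure D2:**
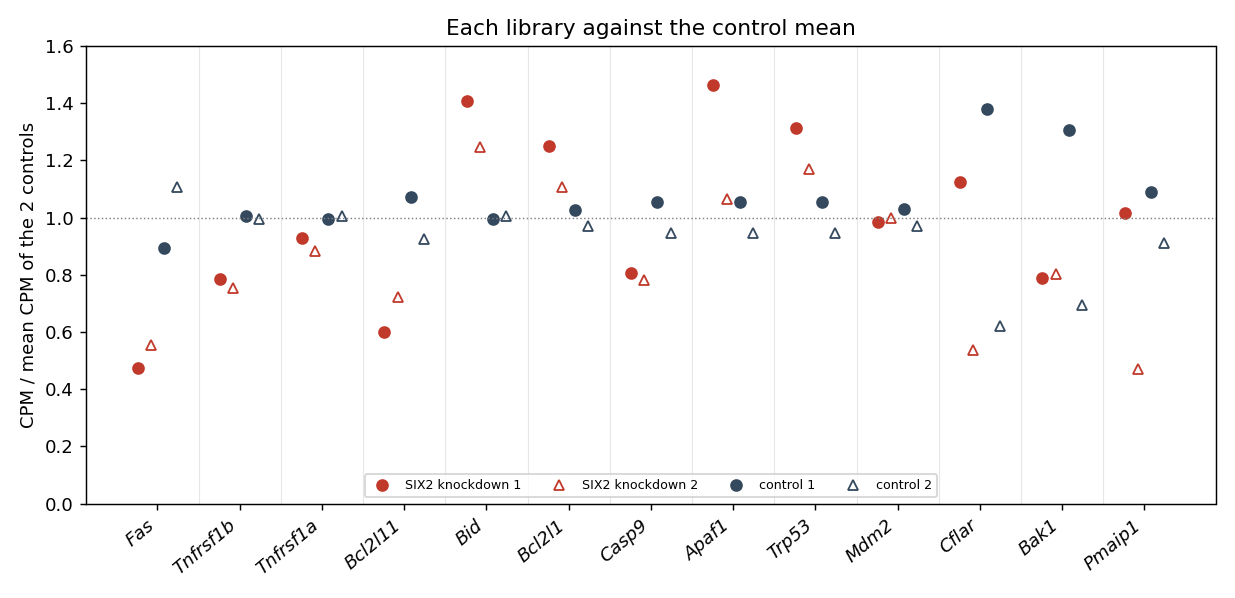
CPM of 13 genes in each library, divided by the mean CPM of the 2 control libraries (dotted line at 1). Fas, Tnfrsf1b, Tnfrsf1a, Bcl2l11 and Casp9 have both knockdown libraries below both controls. Bid, Bcl2l1, Trp53 and Apaf1 have both above, Apaf1 by little in knockdown 2. Mdm2 overlaps between groups, and Cflar, Bak1 and Pmaip1 are wide within a group.

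The adaptors and kinases under the receptors, taken with Cflar, had a median log2 fold change of -0.08 over 4 genes. The median of the 3 tested receptors was -0.38. Fadd, the adaptor between FAS and caspase-8, had 32.1 and 29.1 CPM in knockdown libraries and 28.0 and 27.6 CPM in control libraries. The knockdown libraries were slightly above, with a log2 fold change of 0.14 ± 0.11 (edgeR adjusted p = 0.658). Ripk1, the kinase shared by TNF receptor survival and death complexes, averaged 59.1 ± 0.896 CPM in knockdown and 55.5 ± 0.144 CPM in control libraries (SD, n = 2 each). Ripk3, the kinase of necroptosis, had 2.78 and 3.96 CPM in knockdown libraries and 4.09 and 3.91 CPM in control libraries, which overlap. Its log2 fold change was -0.25 ± 0.29 (interval -0.94 to 0.44), larger in size than that of Tnfrsf1a.

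Cflar, which encodes the caspase-8 inhibitor c-FLIP, had replicates that lay far apart in both groups. It had 38.9 and 18.5 CPM in knockdown libraries and 47.7 and 21.5 CPM in control libraries. The first library of each group was more than 2-fold above the second, by 2.10 and 2.22 times, so the groups overlap. The log2 fold change of -0.27 ± 0.68 had an interval from -2.61 to 2.08, which leaves its direction undetermined. It was 0.17 without knockdown 2 and 0.42 without control 1. Over the whole death receptor group, 7 of 8 genes were tested, 2 were higher and 5 lower in sign, and the median was -0.25.

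Among the caspases and the apoptosome, Casp9 and Apaf1 differed in opposite directions. Casp9, the initiator caspase of the intrinsic route, had 46.7 and 45.2 CPM in knockdown libraries and 61.1 and 54.7 CPM in control libraries. Both knockdown libraries were below both controls, with a log2 fold change of -0.33 ± 0.10 (interval -0.56 to -0.11; edgeR adjusted p = 0.194). Apaf1, the scaffold that activates caspase-9, had 59.1 and 43.0 CPM in knockdown libraries and 42.5 and 38.2 CPM in control libraries. Its knockdown libraries lay above, the second by little, with a log2 fold change of 0.34 ± 0.16 (interval -0.06 to 0.74; edgeR adjusted p = 0.435). The ratio of Casp9 to Apaf1 FPKM was 1.37 and 1.83 in knockdown libraries, against 2.50 and 2.49 in control libraries. Without knockdown 1 the Apaf1 value was the lowest of its alternatives, at 0.09.

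Casp8, the initiator caspase of the death receptors, was the most abundant of the 3 caspases, at 17.4 and 19.0 FPKM in knockdown libraries and 16.2 and 18.6 FPKM in control libraries. The groups overlap, and the log2 fold change was 0.10 ± 0.10 (edgeR adjusted p = 0.723). Casp6, an executioner caspase, was the least abundant, at 2.26 and 2.07 FPKM in knockdown libraries and 1.74 and 1.91 FPKM in control libraries. Its log2 fold change was 0.28 ± 0.14 (interval -0.06 to 0.62). The median of the 3 caspases was 0.10, and 0 of them passed the test. As a within-library ratio, Cflar stood at 0.157 and 0.0678 of Casp8 FPKM in knockdown libraries and 0.210 and 0.0831 in control libraries.

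**Figure D3:**
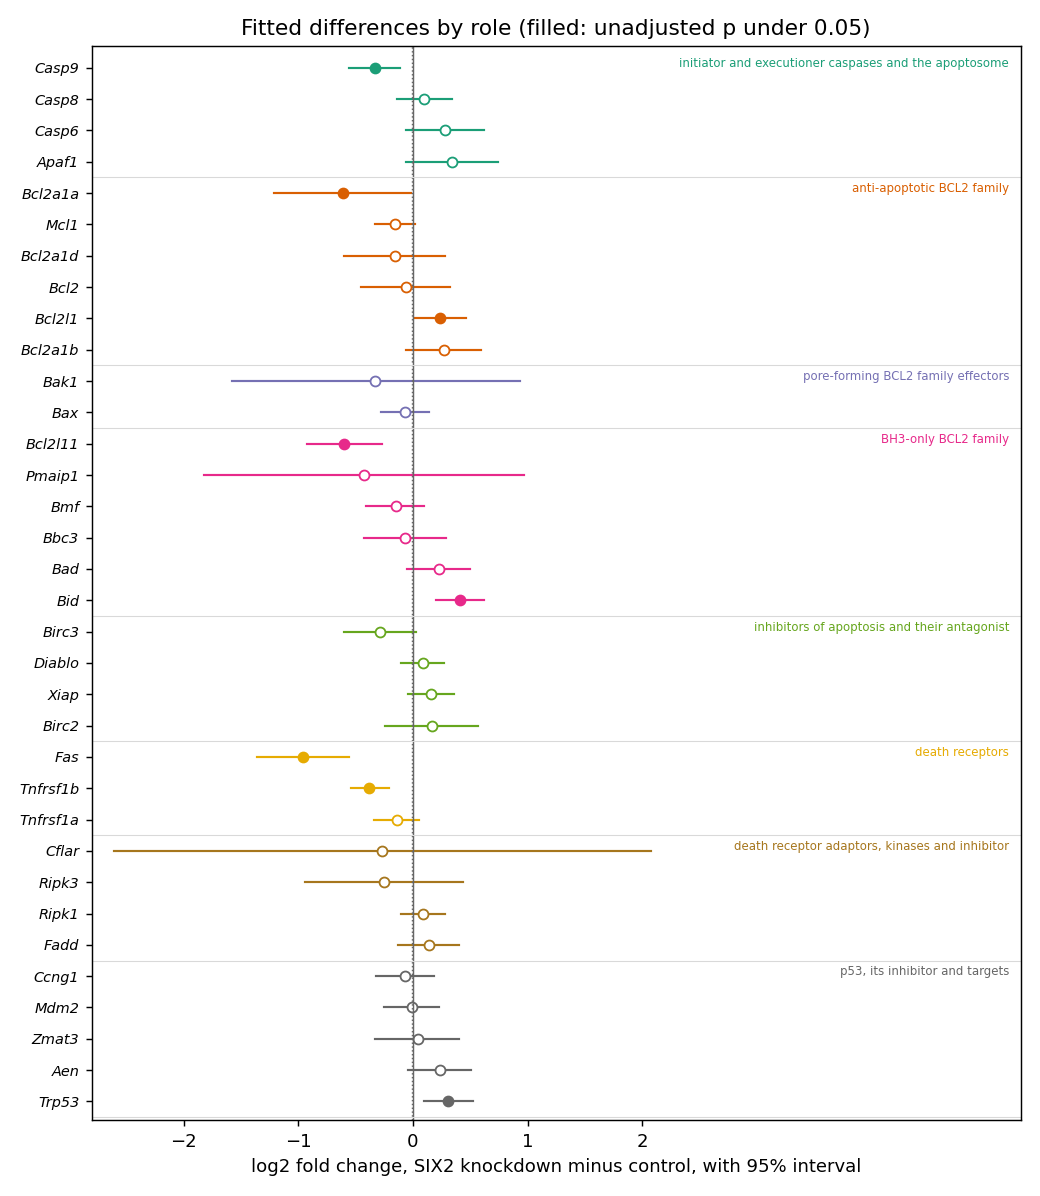
Log2 fold change, knockdown minus control, with its 95% interval for 34 genes by role; Phlda3 is left out because its value depends on the prior count. Filled points have an unadjusted p under 0.05, the dotted line marks the median of all genes at -0.01, and Cflar, Pmaip1 and Bak1 have the widest intervals.

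The BCL2 family made up 14 of the 36 genes. Among them 4 had positive and 10 negative log2 fold changes, 0 passed the edgeR test, and the median was -0.11. The anti-apoptotic members, which hold the mitochondrial membrane closed, had a median of -0.11 over 6 genes. Mcl1, a short-lived guardian needed by many myeloid cells, was the most abundant of them. It had 84.7 and 87.6 FPKM in knockdown libraries and 102 and 94.7 FPKM in control libraries, so the knockdown libraries were below, with a log2 fold change of -0.16 ± 0.07 (interval -0.33 to 0.02; edgeR adjusted p = 0.405). Mcl1 held 61.6% and 61.7% of the summed anti-apoptotic FPKM in knockdown libraries and 67.5% and 64.2% in control libraries. Bcl2l1, which encodes BCL-xL, differed in the other direction, with 75.6 and 66.8 CPM in knockdown libraries and 62.1 and 58.7 CPM in control libraries. Its log2 fold change was 0.24 ± 0.10 (interval 0.01 to 0.46; edgeR adjusted p = 0.332). Bcl2 itself was the least abundant, at 1.03 and 1.27 FPKM in knockdown libraries and 1.22 and 1.25 FPKM in control libraries. These overlap, with a log2 fold change of -0.06 ± 0.16 (interval -0.45 to 0.32).

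The Bcl2a1 genes are mouse copies of the gene for A1, an NF-kappaB-induced survival protein. Their sequences are shown because the copies are nearly identical, which bears on how far their values can be told apart. Each has a coding length of 516 bases in GENCODE (GRCm38). Bcl2a1a and Bcl2a1b differ at 11 bases (97.9% identical), Bcl2a1a and Bcl2a1d at 7 (98.6%), and Bcl2a1b and Bcl2a1d at 6 (98.8%). The longest identical runs are 217, 314 and 217 bases, longer than a 150-base read. The first 150 coding bases are given 5′ to 3′ on the strand of each gene, and capitals mark the 7 positions there, of 12 in the whole coding sequence, at which the 3 copies are not all the same. The spliced sequences come from exons within chr9:88956900-88962419 (plus strand) for Bcl2a1a, chr9:89199209-89207827 (plus strand) for Bcl2a1b and chr9:88723285-88731914 (minus strand) for Bcl2a1d.
Bcl2a1a: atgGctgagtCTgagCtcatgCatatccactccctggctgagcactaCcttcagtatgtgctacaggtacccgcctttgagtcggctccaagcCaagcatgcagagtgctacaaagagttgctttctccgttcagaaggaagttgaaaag
Bcl2a1b: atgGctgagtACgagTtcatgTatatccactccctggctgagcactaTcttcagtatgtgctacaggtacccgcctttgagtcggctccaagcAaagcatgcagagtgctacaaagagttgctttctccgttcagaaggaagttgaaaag
Bcl2a1d: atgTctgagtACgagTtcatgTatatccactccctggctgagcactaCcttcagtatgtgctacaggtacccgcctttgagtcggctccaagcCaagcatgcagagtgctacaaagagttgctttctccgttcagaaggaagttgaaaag

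Taken as deposited, the copies differed in direction. Bcl2a1a had 237 and 241 counts in knockdown libraries and 440 and 306 in control libraries, so both knockdown libraries were below, with a log2 fold change of -0.61 ± 0.25 (interval -1.21 to -0.02; edgeR adjusted p = 0.339). Bcl2a1b, the most abundant copy, had 1794 and 1723 counts in knockdown libraries and 1490 and 1438 in control libraries, with a log2 fold change of 0.27 ± 0.14 (edgeR adjusted p = 0.457). Bcl2a1d had 517 and 413 counts in knockdown libraries and 558 and 482 in control libraries, with a log2 fold change of -0.16 ± 0.19. Of the counts given to the 3 copies, Bcl2a1a held 9.3% and 10.1% in knockdown libraries and 17.7% and 13.7% in control libraries. The summed counts were 2548 and 2377 in knockdown libraries and 2488 and 2226 in control libraries. As 1 feature the copies had a log2 fold change of 0.07 ± 0.11 (interval -0.19 to 0.33; edgeR adjusted p = 0.848). A read pair within such an identical run cannot be assigned to a copy, so the values of single copies are uncertain. The gene model Gm29094, which shares exon sequence with Bcl2a1b on the same strand, had 0 and 4 counts in knockdown libraries and 16 and 12 in control libraries.

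**Figure D4:**
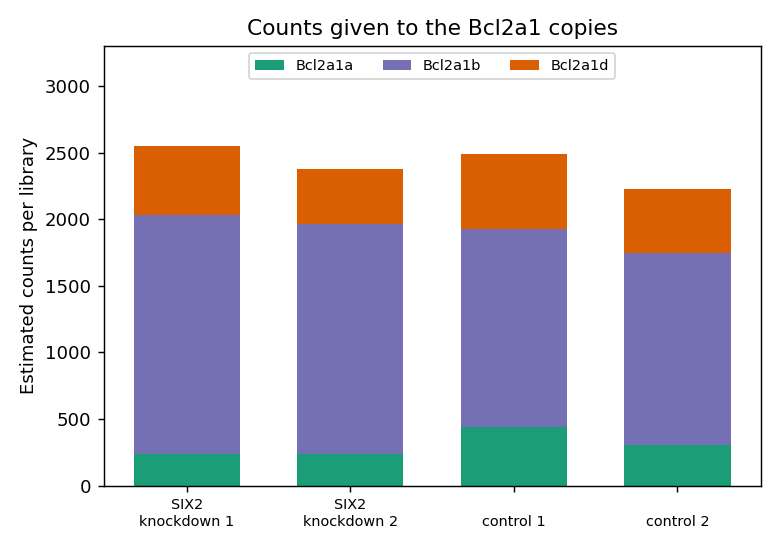
Estimated counts given to Bcl2a1a, Bcl2a1b and Bcl2a1d in each library, stacked, with knockdown libraries left and control libraries right. The stacks reach 2548 and 2377 counts in knockdown libraries and 2488 and 2226 in control libraries, and the Bcl2a1a segment is smaller in knockdown libraries.

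The pore-forming effectors were abundant and not separated between groups. Bax had 104 and 104 FPKM in knockdown libraries and 119.9 and 104 FPKM in control libraries. The knockdown libraries matched the lower control, and the log2 fold change was -0.07 ± 0.09 (interval -0.28 to 0.14; edgeR adjusted p = 0.790). Bak1 had 40.1 and 40.6 FPKM in knockdown libraries and 67.4 and 36.2 FPKM in control libraries. Its controls were 1.88-fold apart and enclosed both knockdown libraries, so its value of -0.33 ± 0.38 rested on control 1 and was 0.20 without it. The summed anti-apoptotic FPKM, divided by Bax plus Bak1, was 0.951 and 0.980 in knockdown libraries and 0.807 and 1.05 in control libraries, which overlap.

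The BH3-only proteins sense stress and engage the other BCL2 proteins, and here Bid and Bcl2l11 stood out in opposite directions. Bid, which links caspase-8 to mitochondria, had 111 and 98.1 CPM in knockdown libraries and 78.3 and 79.2 CPM in control libraries. Both knockdown libraries were above both controls. The log2 fold change was 0.41 ± 0.09 (interval 0.20 to 0.62), with an edgeR adjusted p of 0.111 and a range of 0.00815 to 0.363 over 14 alternatives. Bcl2l11, which encodes BIM, an initiator of apoptosis in leukocytes, had 24.2 and 29.1 CPM in knockdown libraries and 43.2 and 37.3 CPM in control libraries. Here both knockdown libraries were below, and the log2 fold change was -0.60 ± 0.14 (interval -0.92 to -0.27), with an edgeR adjusted p of 0.123 and a range of 0.00807 to 0.332 over 14 alternatives. The lower ends of both ranges are DESeq2 values.

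Among the other BH3-only genes, Bad, which binds BCL-xL when not phosphorylated, averaged 26.4 ± 0.367 CPM in knockdown and 22.5 ± 1.40 CPM in control libraries (SD, n = 2 each). Bmf, which responds to loss of attachment, averaged 26.1 ± 0.488 CPM in knockdown and 29.1 ± 0.824 CPM in control libraries. Bbc3, which encodes the p53-induced protein PUMA, averaged 12.7 ± 1.46 CPM in knockdown and 13.4 ± 0.480 CPM in control libraries. Of these, Bad and Bmf did not overlap between groups and Bbc3 did, and the edgeR adjusted p-values were 0.441, 0.595 and 0.9. Pmaip1, which encodes the p53-induced protein NOXA, had 34.4 and 16.0 CPM in knockdown libraries and 36.9 and 30.9 CPM in control libraries. Knockdown 2 was low and knockdown 1 lay between the controls. The log2 fold change of -0.43 ± 0.45 therefore rested on knockdown 2, and was 0.02 without it.

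The inhibitors of apoptosis and their antagonist had a median of 0.12, with 0 of 4 passing the test. Birc3, which encodes the NF-kappaB-induced ubiquitin ligase cIAP2, had 19.98 and 20.2 CPM in knockdown libraries and 22.4 and 26.7 CPM in control libraries. The knockdown libraries were below, with a log2 fold change of -0.29 ± 0.13 (interval -0.60 to 0.03; edgeR adjusted p = 0.395). Its neighbour on chromosome 9, Birc2, encodes cIAP1 and averaged 11.7 ± 1.19 CPM in knockdown and 10.4 ± 1.25 CPM in control libraries (SD, n = 2 each). Xiap, a direct inhibitor of caspases, averaged 62.5 ± 2.34 CPM in knockdown and 56.0 ± 1.195 CPM in control libraries, with a log2 fold change of 0.16 ± 0.08. Diablo, the mitochondrial antagonist of these proteins, was the most abundant of the group, at 12.6 and 12.9 FPKM in knockdown libraries and 12.4 and 12.2 FPKM in control libraries. Its log2 fold change was 0.09 ± 0.08 (interval -0.10 to 0.27).

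Trp53, the gene for p53, was among the most abundant of the 36 genes, while its inhibitor Mdm2 was near equal between groups. The Trp53 and Mdm2 promoters are shown because p53 controls Mdm2 and the values of the pair differ. Both windows are from RefSeq (GRCm38.p6), 5′ to 3′ on the strand of the gene, Trp53 on the plus strand at chr11:69580109-69580408 and Mdm2 on the minus strand at chr10:117710709-117711008. Capitals mark a match to the NF-kappaB motif or to the p53 decamer, a half-site that is only part of a p53 response element. The windows end 50 bases after the RefSeq start, so p53 sites further into either gene would not be seen. The NF-kappaB match is the run in capitals nearer the transcription start in Trp53, and its motif took any base at the fifth position.
Trp53: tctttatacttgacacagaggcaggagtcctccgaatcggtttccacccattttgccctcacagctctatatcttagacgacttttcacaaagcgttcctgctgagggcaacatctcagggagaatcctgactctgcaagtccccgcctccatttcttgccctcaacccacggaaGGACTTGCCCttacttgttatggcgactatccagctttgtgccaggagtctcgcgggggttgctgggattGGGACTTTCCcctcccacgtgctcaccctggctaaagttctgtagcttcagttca
Mdm2: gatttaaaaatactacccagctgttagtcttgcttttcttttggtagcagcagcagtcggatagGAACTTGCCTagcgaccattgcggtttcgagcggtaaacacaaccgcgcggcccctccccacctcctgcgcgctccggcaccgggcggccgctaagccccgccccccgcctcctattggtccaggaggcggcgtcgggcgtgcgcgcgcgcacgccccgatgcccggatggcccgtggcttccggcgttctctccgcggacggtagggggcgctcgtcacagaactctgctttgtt

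Promoters of 33 of the 36 genes were found in RefSeq, 46 windows in all, and were searched on both strands. The NF-kappaB motif was in 0.411% of all 32851 promoter windows and, of the 33 genes, in Trp53 alone. The p53 decamer was in 8.36% of all windows and in 8 of the 46 windows of these genes, which belong to 7 genes: Aen, Bax, Birc2, Bmf, Ccng1, Mdm2 and Trp53. The MEF3 motif TCAGGTT, known as a binding sequence of the SIX2 family, was in 4.07% of all windows and, of the 33 genes, in Bmf alone. In the Trp53 window the p53 match lies upstream of the NF-kappaB match, and they do not overlap. These matches describe the letters of the windows and say nothing of binding.

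Trp53 had 396 and 353 CPM in knockdown libraries and 317 and 285 CPM in control libraries. Both knockdown libraries were above both controls. The log2 fold change was 0.31 ± 0.09 (interval 0.10 to 0.52), with an edgeR adjusted p of 0.192 and a range of 0.0676 to 0.565 over 14 alternatives. The pseudogene Trp53-ps had 294 and 376 counts in knockdown libraries and 218 and 388 in control libraries, against 29324 and 22325 for Trp53 in knockdown and 24200 and 17632 in control libraries. Mdm2, the ubiquitin ligase that degrades p53 and is itself a p53 target, had 35.8 and 36.3 CPM in knockdown libraries and 37.4 and 35.3 CPM in control libraries. The knockdown libraries lay between the controls, with a log2 fold change of -0.01 ± 0.10 (interval -0.25 to 0.23). The ratio of Mdm2 to Trp53 FPKM was 0.0718 and 0.0818 in knockdown libraries and 0.0938 and 0.0983 in control libraries.

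The p53 targets did not share a direction. Aen, an apoptosis-enhancing nuclease, averaged 61.7 ± 7.51 CPM in knockdown and 52.4 ± 4.76 CPM in control libraries (SD, n = 2 each), with a log2 fold change of 0.24 ± 0.12. Ccng1, which encodes cyclin G1, averaged 50.5 ± 4.14 CPM in knockdown and 53.1 ± 4.35 CPM in control libraries, with a log2 fold change of -0.07 ± 0.11. Zmat3, a p53-induced RNA-binding protein, averaged 12.3 ± 1.42 CPM in knockdown and 12 ± 0.290 CPM in control libraries, with a log2 fold change of 0.04 ± 0.15. Of these, Aen was above in both knockdown libraries, the second by little, and the groups overlapped for Ccng1 and Zmat3.

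Phlda3, a p53-induced inhibitor of AKT signalling, was near the detection limit. It had 58 and 59 counts in knockdown libraries and 6 and 0 in control libraries. The knockdown libraries stood above the floor of 12 counts and the control libraries under it. At 4 counts per fragment, rounded to whole fragments, these were 29 over the knockdown libraries and 2 over the control libraries. Their ratio was 14.3 with an exact 95% counting interval of 3.61 to 123, and both depend on that rounding. The edgeR adjusted p was 0.218 and the DESeq2 one 0.026, and over 13 alternatives the adjusted p ran from 0.026 to 0.478. The fitted log2 fold change of 4.32 depends on the prior count and is not a bound.

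Counting p53 targets in any role (Fas, Bax, Bbc3, Pmaip1, Apaf1 and Tnfrsf10b among them), 10 of 11 were tested, 4 had positive and 6 negative log2 fold changes, and the median was -0.04. Set side by side, the group medians were -0.25 for the death receptor group, 0.10 for the caspases, -0.11 for the BCL2 family and 0.14 for p53, Mdm2 and the targets listed with them. In each of these groups 0 genes passed the edgeR test, and the differences between the group medians were not tested.

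**Figure D5:**
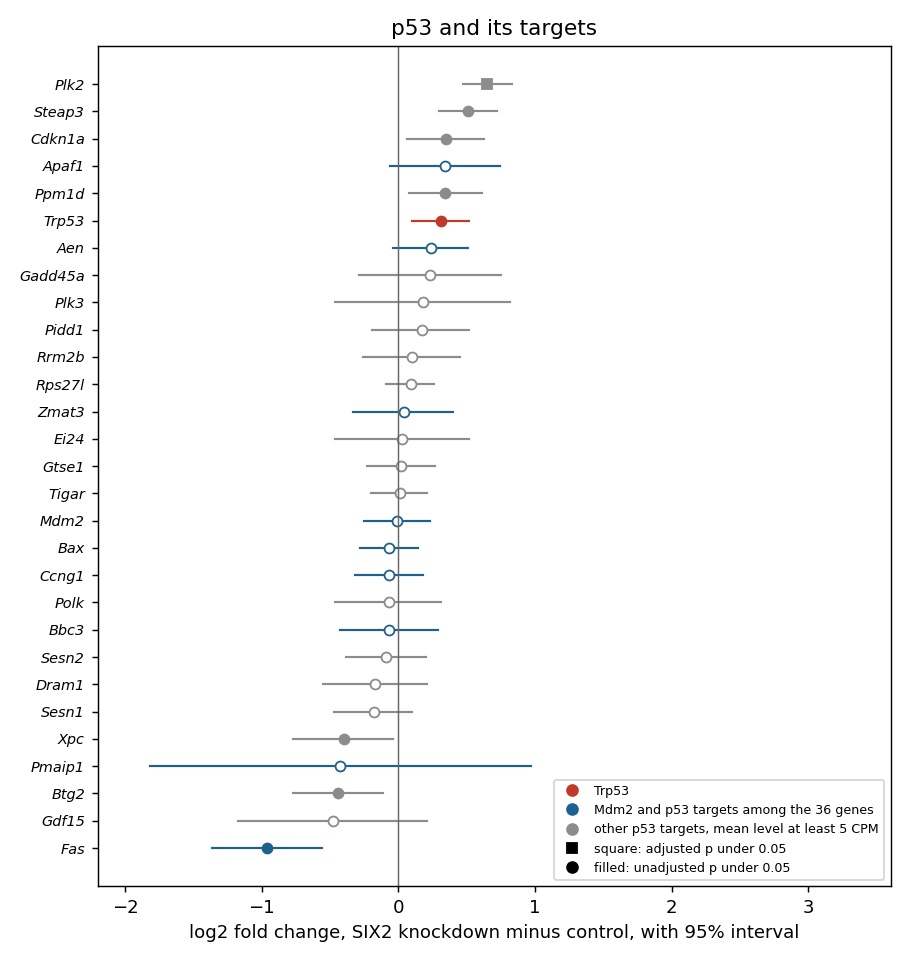
Log2 fold change, knockdown minus control, with its 95% interval for Trp53, Mdm2 and p53 targets with a mean of at least 5 CPM. Plk2 (square) passed the adjusted threshold; Trp53 is at 0.31, Cdkn1a at 0.35, Mdm2 at -0.01 and Fas at -0.96.

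Beyond the 36 genes, 91 other genes of the same pathways were in the table and 83 were tested. Of these 1 was higher and 1 lower in the edgeR test, and the other 81 did not pass it. Over all genes tested 0.407% were higher and 0.547% lower in that test. At an unadjusted p under 0.05 in edgeR there were 21 (25.3%), 14 higher and 7 lower. This compares with 14.2% of all genes tested (7.52% higher and 6.7% lower). The median log2 fold change was 0.01, against -0.01 for all genes tested. Plk2, a polo-like kinase and p53 target, was the higher gene, with 138 and 134 CPM in knockdown libraries and 88.6 and 84.9 CPM in control libraries. Both knockdown libraries were above, with a log2 fold change of 0.65 ± 0.08 (interval 0.47 to 0.83; edgeR adjusted p = 0.0183). Leaving out any 1 library ended this call, with adjusted p-values of 0.0654 to 0.114. A fit without edgeR's robust option gave 0.0634, and across 14 alternatives the adjusted p ran from 3.23e-11 to 0.159.

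Among the other pathway genes, Cdkn1a, the p53 target that encodes the cell cycle inhibitor p21, had 60.7 and 54.4 CPM in knockdown libraries and 49.6 and 40.9 CPM in control libraries. Both knockdown libraries were above, with a log2 fold change of 0.35 ± 0.12 (edgeR adjusted p = 0.265). Tnf, the ligand of both TNF receptors, had 75.8 and 79.0 CPM in knockdown libraries and 64.3 and 57.3 CPM in control libraries. Its log2 fold change was 0.35 ± 0.09 (edgeR adjusted p = 0.171), opposite in sign to the fitted values of its receptors. Neither Tnf nor a receptor passed the test, and the Tnfrsf1a interval, -0.34 to 0.05, took in both signs. Tnfaip3, which encodes A20, an inhibitor of TNF receptor signalling, had 23.3 and 23.0 CPM in knockdown libraries and 31.6 and 34.1 CPM in control libraries, with a log2 fold change of -0.50 ± 0.11 (edgeR adjusted p = 0.110).

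Bnip3, a mitochondrial BH3-like protein induced by hypoxia, had 98.4 and 104 CPM in knockdown libraries and 143 and 131 CPM in control libraries, with an edgeR adjusted p of 0.0811. Birc6, a giant inhibitor of apoptosis protein, had 6.90 and 6.75 FPKM in knockdown libraries and 5.08 and 5.49 FPKM in control libraries, with an edgeR adjusted p of 0.0740. Naip2, which belongs to the same family and detects bacterial secretion proteins, had 23.8 and 22.4 CPM in knockdown libraries and 25.0 and 28.8 CPM in control libraries. The groups did not overlap for these 3 genes, nor for 47.6% of all genes tested, and 0 of the 3 passed the test. They were named for having the lowest p-values of their lists, which favours separated groups. Usp7, which deubiquitinates MDM2 and p53, had 213 and 213 CPM in knockdown libraries and 167 and 173 CPM in control libraries, with an edgeR adjusted p of 0.104. Trp53bp2, which encodes a p53-binding protein, had 39.9 and 43.6 CPM in knockdown libraries and 32.3 and 29.9 CPM in control libraries, with an edgeR adjusted p of 0.154. Both lay above in the knockdown libraries, as did 23.8% of all genes tested. They too were named for the lowest p-values of their list. Hrk, a BH3-only gene best known from neurons, had 0 counts in both knockdown libraries and 14 counts in each control library, just over the floor of 12, with an edgeR adjusted p of 0.284.

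Of the 36 genes, 31 had replicates within 1.5-fold of each other in both groups. The 4 others tested were Cflar, Bak1, Pmaip1 and Phlda3. In GENCODE release 21 for mouse, exons are shared with another gene model on the same strand by Bax, Bcl2a1b, Diablo and Ripk1. On the opposite strand they are shared by Bad, Bak1, Bcl2, Bid, Casp9, Diablo, Fadd and Ripk1. The deposited coordinates of Diablo and Ripk1 are not identical to that release. No source used here states whether counting used the strand, so reads from the overlapping gene models could not be told apart.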

How the data were processed

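RNA sequencing was done on 2 knockdown and 2 control libraries, grouped by the genotype label. Poly(A) RNA was selected on beads, libraries marked strand with dUTP, and reads were pairs of 150 bases, per the labels' protocols. The authors deposited estimated counts, whole numbers per gene that were not normalised. FPKM, so called per the file headers, were deposited beside them. Bowtie 0.12.2 and build mm8 are named in the submitters' processing notes. No source used here names the counting program. Coordinates were nevertheless identical to GENCODE release 21 for mouse (GRCm38) for 89.2% of the genes with FPKM values and for 31 of the 36 members. The others are Birc2, Birc3, Diablo, Ripk1 and Tnfrsf1a, for which none are printed. There were 12 columns that match no labelled sample, and these were not used.

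Low counts clustered at multiples of 4, so 1 fragment was taken as 4 counts and the floor as 3 fragments. This is an assumption: of counts from 1 to 20, 42.1% to 47.2% per library were multiples of 4. The floors, fragment totals and counting intervals rest on it. Floors and counting intervals cover counting error only; libraries held 15.2 to 18.9 M fragments. The test was that of edgeR 4.0.16 (R 4.3.3), with filterByExpr, TMM scaling, a robust quasi-likelihood fit and a two-sided F test. P-values were adjusted by Benjamini-Hochberg over all 15733 genes tested, with a threshold of 0.05. Fold changes are knockdown minus control; CPM use the TMM scaling. The fit was tested on simulated data.

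The members and gene lists were chosen with earlier results of these data known. All 36 members are named. Values per library are given for those with an unadjusted p under 0.05 or a count of 0, the most abundant and the lowest p of each role, Trp53, Mdm2, Bcl2, Bax and the Bcl2a1 copies; some others were added after their values were seen. Of other pathway genes, those past the threshold are named, or the lowest 2 p-values of a list, with Cdkn1a and Tnf; a few genes that this rule takes are not reported here. Casp12, Bcl2l10, Bcl2a1c, Fasl, Tnfsf10 and Eda2r, and the T cell markers, were not analysed here. Alternatives used DESeq2 1.42.0, limma 3.58.1 on log2(FPKM + 1) and log2(FPKM + 0.1), other scaling and filters, counts divided by 4, summed Bcl2a1 copies, a replicate block and each library left out.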

Additional observations from a re-analysis of the deposited data

How the results depend on the processing

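The count of calls over all genes, 150, became 806 under DESeq2, 297 when no filter was used, 7 without the robust option, 3 with limma on log2(FPKM + 1) and 4 with 0.1 added, and 41 to 112 with 1 library left out (42 without knockdown 2, 62 without control 1, 41 without control 2). Among the 36 genes the count was 5 with DESeq2, 2 with no filter (Fas and Tnfrsf1b), 1 with a filter of 1 CPM in every library (Tnfrsf1b), and 0 otherwise. For the other pathway genes the count of 2 became 10 with DESeq2, 5 with no filter, 0 without the robust option, 0 with either limma fit, and 0 to 0 with 1 library left out. With the replicate number as a replicate block, 0 genes in the table were called, including 0 of the 36 and 0 of the other pathway genes, and 2055 had an unadjusted p under 0.05. Same-numbered libraries did not deviate together (r = 0.0486 across 15733 genes, which are not independent replicates), so the numbers were not taken as pairs.

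Of 486 values of the 36 genes under 14 alternatives, 466 kept their direction and side of the threshold, 8 passed it and 12 changed sign. The 9 genes that changed sign when 1 library was left out ranged from -0.90 to 0.42 for Cflar, -0.16 to 0.02 for Ccng1, -0.05 to 0.03 for Mdm2, -0.09 to 0.15 for Zmat3, -0.71 to 0.20 for Bak1, -0.20 to 0.05 for Bbc3, -0.22 to 0.08 for Bcl2, -1.09 to 0.02 for Pmaip1 and -0.17 to 0.04 for Bax. Zmat3 was also -0.00054 with limma on log2(FPKM + 0.1). These signs turned without knockdown 1 (Ccng1, Zmat3, Bcl2), knockdown 2 (Cflar, Bbc3, Pmaip1), control 1 (Cflar, Mdm2, Bak1, Bax) or control 2 (Ccng1). The causes were not tested. The other 26 tested genes kept their direction.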
